A study of Mus musculus with 12 samples.

Results

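The genes described here encode epidermal growth factor (EGF)-like ligands and the ErbB receptors that bind them. They were measured in cumulus cells of the mouse ovary, which derive from granulosa cells and surround the oocyte. They were 10 genes chosen by symbol, of 19938 genes measured: the ligand genes Ereg, Btc, Epgn, Hbegf, Tgfa and Nrg1, the receptor genes Egfr, Erbb2 and Erbb3, and Errfi1, the gene of a feedback inhibitor. Each was read from 1 probe set, and none had a second probe set annotated to it alone. The study measured cumulus cells on 12 arrays, 4 for each of 3 culture conditions. All complexes came from 129SV females of 21 to 26 days of age, 44 h after 5 IU of equine chorionic gonadotropin. They were collected in medium with 1 µM cilostamide, a phosphodiesterase inhibitor, and cultured for 8 h, 20 to a drop of 50 µL, with the oocyte still in place. The FSH/EGF group had 50 mIU/ml follicle-stimulating hormone (FSH) and 10 ng/ml EGF together, in 293H control medium. The GDF9 group had 20 ng/ml growth differentiation factor 9, a factor that oocytes secrete, and the labels name no control medium for it. The control group had 293H control medium at 0.125% by volume. No group had FSH or EGF alone, so what each did in the FSH/EGF group cannot be told apart. The oocytes were removed by pipetting before RNA extraction, and each array held pooled RNA of 2 of 8 biological replicates, so that the p-values measure the spread between such pools.

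EGF-like ligands are made as membrane-anchored precursors, and proteases of the ADAM family cut them free. A ligand that binds the EGF receptor or ErbB4 brings the receptors together in pairs and switches on their kinases. ErbB2 has no known ligand of its own, and ErbB3, a neuregulin receptor, has little kinase activity and signals through its partners. In the preovulatory follicle, luteinizing hormone raises EGF-like ligands in granulosa cells, and these act on the EGF receptor of the cumulus cells to bring on expansion and oocyte maturation. Errfi1 (also called Mig-6) encodes an inhibitor that binds the active receptor kinase.

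Genes of EGF receptor ligands rose with FSH/EGF, and the gene of the receptor fell. With FSH/EGF against control, 3 of the 6 ligand genes rose, Btc and Ereg by over 4 log2 units and Epgn by 1.59, while Egfr fell by 2.28. The inhibitor gene Errfi1 rose by 1.37 and the receptor gene Erbb3 by 0.30. Hbegf, Tgfa, Nrg1 and Erbb2 did not pass the test. Of all genes, 21.9% rose and 14.9% fell in this comparison. With GDF9 against control none of the 10 genes passed the test, and 0 of all 19938 genes did. All values are log2 array signals as the authors normalized them, and a difference is given with its standard error (SE) and the adjusted p of limma, a linear model for all 35399 probe sets. A gene counts as changed where that adjusted p is under 0.05.

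**Figure D1:**
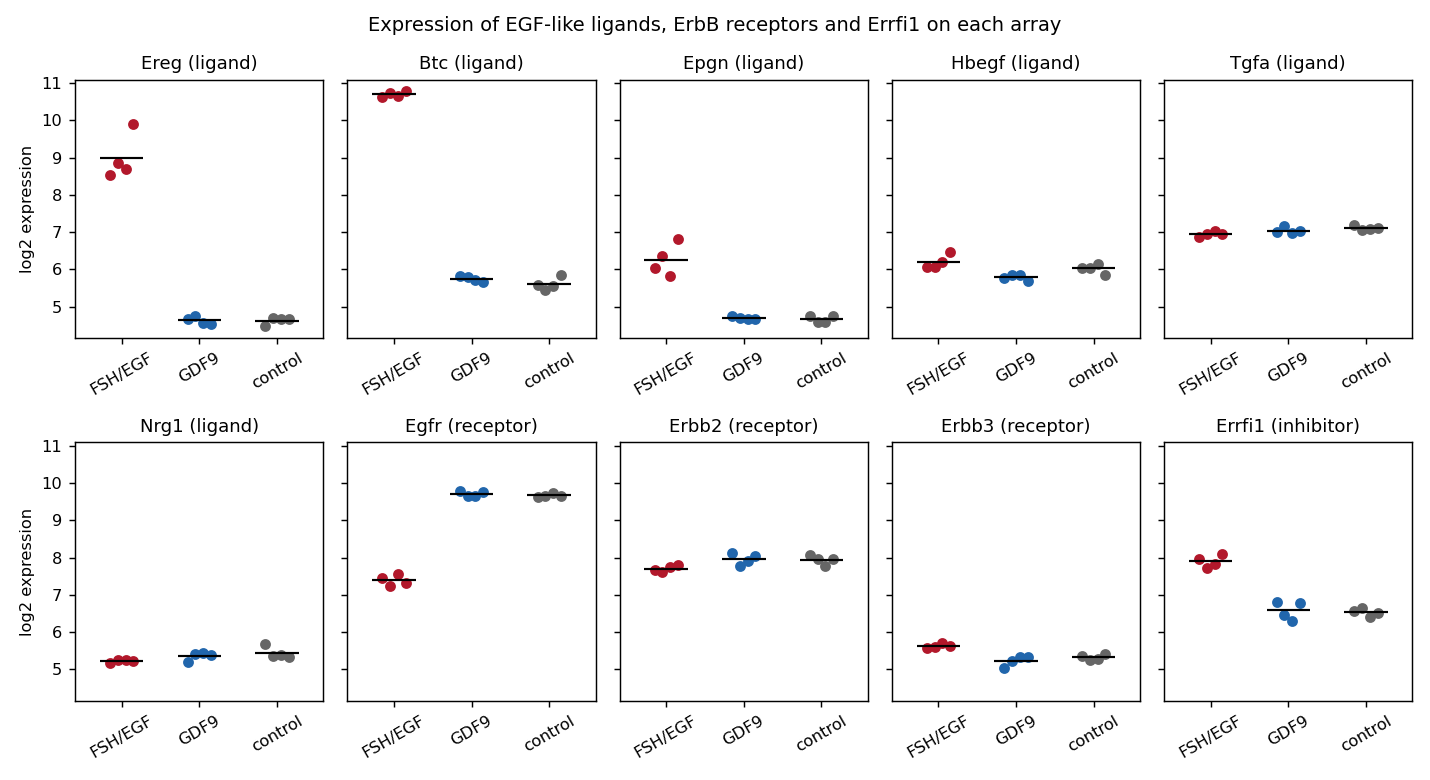
Log2 signal of the 10 genes on each array, with FSH/EGF left of GDF9 and control, one point per array and the group mean as a line. Ereg, Btc, Epgn and Errfi1 stood above both other groups on all 4 FSH/EGF arrays, and Egfr stood below them.

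Upstream sequence is shown here for the 4 genes with the clearest changes whose start regions were available: Errfi1, Epgn and Btc, which rose, and Egfr, which fell. The windows cover 250 bases before to 50 bases after a gene's start and come from RefSeq on GRCm38.p6. Windows were matched for 6 of the 10 genes, and Ereg, Hbegf, Nrg1 and Erbb3 had none. Capitals mark the cyclic AMP response element TGACGTCA, or its 5-base part TGACG on either strand (CGTCA where it lies on the opposite strand). The Errfi1 window lies at chr4:150854820-150855119 on the plus strand, and it is the second of 2 windows for this gene. That of Epgn lies at chr5:91027267-91027566 on the plus strand, that of Btc at chr5:91402945-91403244 on the minus strand, and that of Egfr at chr11:16751953-16752252 on the plus strand. Each is printed 5′ to 3′ on the strand of its gene.
Errfi1: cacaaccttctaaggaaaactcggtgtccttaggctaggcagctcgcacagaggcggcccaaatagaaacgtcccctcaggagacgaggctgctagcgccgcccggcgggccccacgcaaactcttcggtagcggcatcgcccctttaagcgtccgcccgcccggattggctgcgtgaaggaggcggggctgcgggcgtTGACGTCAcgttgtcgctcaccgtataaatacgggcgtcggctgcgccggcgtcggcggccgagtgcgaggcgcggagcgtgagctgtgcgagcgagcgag
Epgn: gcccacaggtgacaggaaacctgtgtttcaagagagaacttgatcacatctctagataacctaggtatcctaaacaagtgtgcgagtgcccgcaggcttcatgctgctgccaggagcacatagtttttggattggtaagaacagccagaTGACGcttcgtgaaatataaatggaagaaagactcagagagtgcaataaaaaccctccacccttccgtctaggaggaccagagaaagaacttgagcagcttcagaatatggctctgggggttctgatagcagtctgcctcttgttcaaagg
Btc: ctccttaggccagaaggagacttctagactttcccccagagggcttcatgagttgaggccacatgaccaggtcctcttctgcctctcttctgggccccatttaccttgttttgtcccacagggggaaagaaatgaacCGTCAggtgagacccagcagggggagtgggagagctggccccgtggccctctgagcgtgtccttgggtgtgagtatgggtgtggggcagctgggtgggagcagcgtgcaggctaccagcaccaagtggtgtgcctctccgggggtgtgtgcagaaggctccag
Egfr: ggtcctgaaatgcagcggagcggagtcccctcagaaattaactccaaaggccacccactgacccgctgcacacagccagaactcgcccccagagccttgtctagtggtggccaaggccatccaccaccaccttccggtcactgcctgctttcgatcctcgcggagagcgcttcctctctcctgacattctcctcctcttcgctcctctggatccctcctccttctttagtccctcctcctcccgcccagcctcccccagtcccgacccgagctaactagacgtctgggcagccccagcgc

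The full 8-base element was present in 1 window of these genes, that of Errfi1, at bases 200 to 207. It occurs in 1.79% of all 32851 windows of this length, with both strands searched. The 5-base part stood at bases 150 to 154 of the Epgn window and at bases 138 to 142 of the Btc window on the opposite strand. Erbb2 also held the 5-base part, on the opposite strand, so that 4 of the 6 genes with a window had it. These 6 genes have 7 windows, and the shares of all windows are by window and not by gene. The 5-base part lies within the full element and occurs in 20.8% of all windows. Neither form was found in the windows of Egfr and Tgfa. AP-1 sites (TGANTCA), which 7.81% of windows hold, were found in none of these windows. A match describes the letters of a window and is not a binding site.

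Btc encodes betacellulin, a ligand of the EGF receptor and of ErbB4. Its log2 signal was 10.62, 10.74, 10.66 and 10.77 on the FSH/EGF arrays, 5.82, 5.79, 5.71 and 5.67 on the GDF9 arrays, and 5.59, 5.46, 5.55 and 5.86 on the control arrays. All FSH/EGF arrays lay far above the rest, and the GDF9 and control arrays overlapped. The difference between FSH/EGF and control was 5.08 ± 0.09 (SE, n = 4 and 4), or 33.9-fold, with a limma adjusted p of 2.75e-12. It was the 6th largest rise among the 19938 genes. Against GDF9 it was 4.95 (limma adjusted p = 3.54e-12).

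Ereg encodes epiregulin, another ligand of the EGF receptor and ErbB4. It measured 8.53, 8.85, 8.69 and 9.90 with FSH/EGF, 4.66, 4.76, 4.57 and 4.55 with GDF9, and 4.48, 4.70, 4.66 and 4.66 in control. The FSH/EGF arrays again stood clear of both groups, and array 4 lay above the other 3. The FSH/EGF minus control difference was 4.37 ± 0.23 (SE, 20.7-fold, n = 4 and 4, limma adjusted p = 2.09e-08), with a 95% interval of 3.88 to 4.86. It was the 15th largest rise among all genes. Signal over background was not analysed, and with GDF9 and control means of 4.63 and 4.62 the size of this rise is approximate.

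Epgn encodes epigen, a ligand of low receptor affinity. Its values were 6.04, 6.36, 5.83 and 6.81 with FSH/EGF, 4.74, 4.71, 4.67 and 4.66 with GDF9, and 4.75, 4.59, 4.60 and 4.76 in control. The groups did not overlap on the FSH/EGF side, and the 4 FSH/EGF arrays spread more than those of the other groups (SD 0.43, against 0.03 with GDF9 and 0.09 in control). The rise was 1.59 ± 0.16 (SE, n = 4 and 4, limma adjusted p = 9.69e-06), the 397th largest among all genes. The control mean of Epgn was 4.67, so the same limit on size holds.

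Hbegf encodes heparin-binding EGF-like growth factor. Its values were 6.07, 6.07, 6.20 and 6.48 with FSH/EGF, 5.77, 5.86, 5.86 and 5.70 with GDF9, and 6.05, 6.05, 6.15 and 5.86 in control. FSH/EGF and control overlapped, while all FSH/EGF arrays exceeded all GDF9 arrays. With FSH/EGF against GDF9 the difference was 0.41 ± 0.10 (SE, n = 4 and 4; limma adjusted p = 0.00843), and against control it was 0.18 ± 0.10 (limma adjusted p = 0.196, 95% interval -0.04 to 0.39). Without FSH/EGF array 4 the difference from control was 0.09 (limma adjusted p = 0.483).

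Tgfa and Nrg1 were lower on every FSH/EGF array than on any control array, by amounts that missed the threshold. The arrays of 41.9% of all genes did not overlap in this comparison. For Tgfa the highest FSH/EGF value was 7.04 and the lowest control value 7.07. Tgfa, the gene of transforming growth factor alpha, averaged 6.95 ± 0.07 with FSH/EGF, 7.04 ± 0.09 with GDF9 and 7.12 ± 0.06 in control (SD, n = 4 each). Its FSH/EGF minus control difference was -0.17 (limma adjusted p = 0.0862). It was -0.33 after a renewed quantile normalization (limma adjusted p = 0.0102), which passed the threshold, and -0.09 with equal array medians (limma adjusted p = 0.339). Nrg1 encodes neuregulin 1, which binds ErbB3 and ErbB4. It averaged 5.22 ± 0.03 with FSH/EGF, 5.36 ± 0.11 with GDF9 and 5.44 ± 0.16 in control. These means lay below or within the array medians of 5.41 to 5.53, so sizes are approximate. The difference of FSH/EGF from control was -0.22 (limma adjusted p = 0.0793). Control array 1 was the highest of all for Nrg1, at 5.68, and without it the difference was -0.14 (limma adjusted p = 0.184). It was -0.13 after the renewed quantile normalization and -0.14 with equal array medians. The intervals reached down to -0.31 for Tgfa and -0.41 for Nrg1.

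Egfr encodes the EGF receptor itself. Its log2 signal was 7.46, 7.24, 7.56 and 7.31 with FSH/EGF, 9.79, 9.64, 9.66 and 9.75 with GDF9, and 9.62, 9.66, 9.74 and 9.65 in control. Every FSH/EGF array lay below every other array, by more than 2 units. The difference from control was -2.28 ± 0.08 (SE, 4.85-fold lower, n = 4 and 4, limma adjusted p = 5.81e-10), with a 95% interval of -2.45 to -2.11. It was the 75th largest fall among all genes. Against GDF9 the difference was -2.32 (limma adjusted p = 5.58e-10). In bulk RNA, fewer cells of a type and less RNA per cell cannot be told apart. The mean level of 9 granulosa and cumulus markers was also lower, 8.14 to 8.34 over the FSH/EGF arrays, 9.64 to 9.77 over the GDF9 arrays and 9.65 to 9.84 over the control arrays. Of these 9 markers 7 fell against control, where 14.9% of all genes fell. Their differences were uneven, from -3.14 for Fshr to -0.17 for Fst (limma adjusted p = 0.153). Inha fell by 0.34, and Amh did not pass the test (-0.36, limma adjusted p = 0.413). The part of these markers in the lower Egfr signal was not tested.

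The other receptor genes moved little. Erbb2 measured 7.66, 7.60, 7.74 and 7.81 with FSH/EGF, 8.11, 7.76, 7.91 and 8.04 with GDF9, and 8.08, 7.96, 7.76 and 7.96 in control. Its groups overlapped, and the FSH/EGF minus control difference of -0.23 ± 0.09 had an adjusted p of 0.0801 (limma). After a renewed quantile normalization, it was -0.46 with an adjusted p of 0.00115. Erbb3 measured 5.57, 5.59, 5.71 and 5.64 with FSH/EGF, 5.03, 5.23, 5.34 and 5.33 with GDF9, and 5.35, 5.24, 5.29 and 5.42 in control. All FSH/EGF arrays exceeded the rest, by 0.30 ± 0.08 over control on average (SE, 1.23-fold, n = 4 and 4, limma adjusted p = 0.0135). With each array left out, this difference ran from 0.27 to 0.33, with a limma adjusted p of at most 0.0454. The control mean of Erbb3, 5.33, lay below the array medians of 5.41 to 5.53, so the size of this rise is approximate.

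Errfi1, whose product blocks the active receptor kinase, measured 7.96, 7.71, 7.82 and 8.09 with FSH/EGF, 6.80, 6.47, 6.31 and 6.79 with GDF9, and 6.56, 6.65, 6.40 and 6.50 in control. The FSH/EGF arrays were all higher, and the GDF9 and control arrays overlapped. The difference from control was 1.37 ± 0.12 (SE, 2.58-fold, n = 4 and 4, limma adjusted p = 2.67e-06), and that from GDF9 was 1.30 (limma adjusted p = 4.51e-06).

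**Figure D2:**
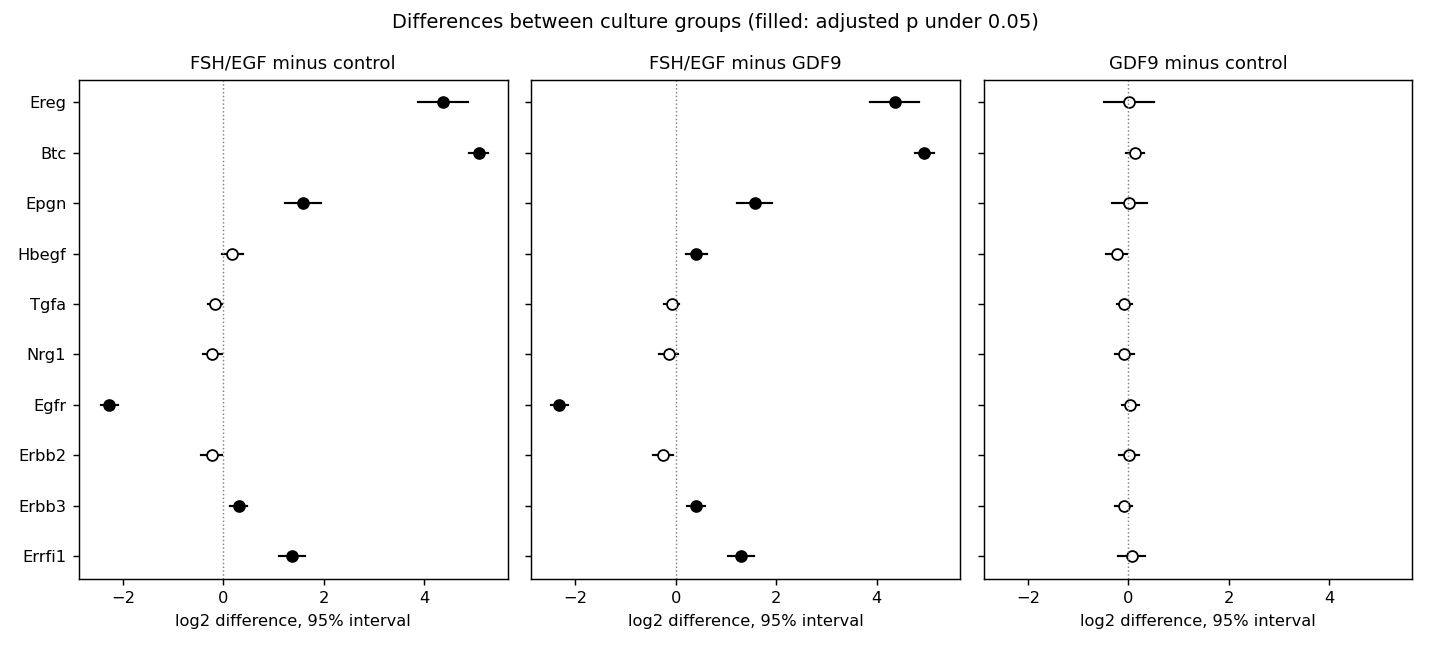
Log2 difference of each gene in the 3 comparisons, with points for the estimate (filled where the adjusted p was under 0.05) and bars for the 95% interval. Btc (5.08) and Ereg (4.37) lie farthest to the high side and Egfr (-2.28) to the low side for FSH/EGF minus control, while the GDF9 minus control differences lie between -0.23 and 0.13.

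For FSH/EGF minus control, 6 of the 10 genes changed, 5 of them higher, where 36.8% of all genes changed (21.9% higher and 14.9% lower). The arrays of 8 of the 10 did not overlap, against 41.9% of all genes. The ligand genes had a median difference of 0.88 and the receptor genes one of -0.23, against -0.07 over all genes. For FSH/EGF minus GDF9, 7 of the 10 changed, 6 of them higher, against a background of 29.1% (18.6% higher and 10.5% lower). In that comparison 7 of the 10 did not overlap, against 33.7% of all genes. Both comparisons share the FSH/EGF arrays, so their likeness is no separate evidence.

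With GDF9 against control, 0 of the 10 genes changed, and 0% of all genes did. At an unadjusted limma p under 0.05 the count was 1 of the 10, against 4.95% of all genes. That gene was Hbegf, with a GDF9 minus control difference of -0.23 ± 0.10 (limma adjusted p = 0.971). Its highest GDF9 value and its lowest control value both round to 5.86. It was also the 1 gene of the 10 whose arrays did not overlap, by that narrow margin, against 2.32% of all genes. Intervals bounded the other differences: -0.05 to 0.32 for Btc, -0.13 to 0.21 for Egfr, -0.33 to 0.37 for Epgn and -0.48 to 0.51 for Ereg. Without control array 4, the Btc difference was 0.22 (limma adjusted p = 0.781).

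The wider pathway was read from 5 lists of 63 genes, of which 57 were measured. The lists were chosen with earlier results of these data known, so their counts are a description. With FSH/EGF against control, 32 rose and 8 fell, with a median of 0.42, where 21.9% of all genes rose, 14.9% fell and the median was -0.07. The list on ligand shedding holds proteases, their partners and an inhibitor, and 7 of its 11 genes rose (21.9% of all genes did) and 0 fell, with a median of 0.52. The 7 were the ADAM genes Adam9, Adam15 and Adam19, the rhomboid-like genes Rhbdf1 and Rhbdf2, Furin and Timp3. With array weights, after the quantile normalization or without control array 1, 1 gene of this list was lower. Rhbdf2, which encodes a partner of the protease ADAM17, rose 7.99-fold (limma adjusted p = 9.09e-11), and Timp3, which encodes a protease inhibitor, rose by 1.76. The protease genes Adam17 and Adam10 themselves had differences of 0.22 and -0.22 (limma adjusted p = 0.174 and 0.127). Furin, which encodes a processing protease, rose by 1.74.

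Among adaptors and the RAS-ERK cascade, 6 of 14 measured genes rose and 3 fell, with a median of 0.19, against 21.9% higher and 14.9% lower over all genes. After the quantile normalization 5 fell. Shc1, an adaptor gene, rose by 1.17, and Map2k1, the gene of a kinase that activates ERK, rose by 0.98. Sos2, the gene of a RAS exchange factor, rose by 0.72. Gab1, a docking protein gene, fell by 0.60. Of the list, 5 further genes were not analysed here. Receptor turnover and inhibition genes numbered 17, of which 11 rose and 2 fell, with a median of 0.49, against the same 21.9% and 14.9% of all genes. Ptprj, which encodes a receptor phosphatase, rose by 2.01, and Hgs, which encodes an endosomal sorting protein, by 0.97. Stam, the gene of a partner of HGS, rose by 0.91. The 2 that fell were Ptpn2, by 0.78 (limma adjusted p = 0.00411), and Sh3kbp1, by 0.58 (limma adjusted p = 0.00109). After a renewed quantile normalization, 6 of these 17 rose.

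The list of genes that EGF receptor signalling is known to raise in cumulus cells had 8 of 10 higher and 2 lower. Of all genes 21.9% were higher and 14.9% lower. The list's median, 3.17, was the highest of the 5 lists. Like the other lists, it was chosen with earlier results of these data known, so the count is a description. Ptgs2, the inducible prostaglandin synthase, rose by 4.83, Ptx3, a pentraxin gene of the expanding matrix, by 4.30, and Ier3, an early response gene, by 4.19. Fos and Egr1, transcription factor genes of the immediate early response, fell by 1.12 and 0.73. Both calls were absent without control array 4, without FSH/EGF array 1 or without FSH/EGF array 3. They were also absent without control array 4 and FSH/EGF array 3 together. Without control array 1 or without FSH/EGF array 2, 1 of them was absent. Of the remaining EGF family genes, 5 of 6 were measured and 1 fell, Nrg2, by 0.41 (limma adjusted p = 0.00913), where 14.9% of all genes fell. That count was 3 with array weights. It was 2 without control array 1, without FSH/EGF array 2, without GDF9 array 2, with only rows of 1 symbol or with a gene's probe sets averaged. With GDF9 against control, 0 of the 57 genes changed in the limma test, and 4 had an unadjusted p under 0.05, as did 4.95% of all genes. All 4 were response genes with higher means with GDF9. Ptgs2 differed by 0.91, Dusp6, the gene of an ERK phosphatase, by 0.78, Ptx3 by 0.71 and Has2, the hyaluronan synthase gene, by 0.67. Dusp6 had an unadjusted p of 0.00011 and a limma adjusted p of 0.847, and its GDF9 arrays (6.41 to 7.13) did not overlap the control arrays (6.02 to 6.26). The limma adjusted p of the other 3 was 0.971, and their arrays overlapped.

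**Figure D3:**
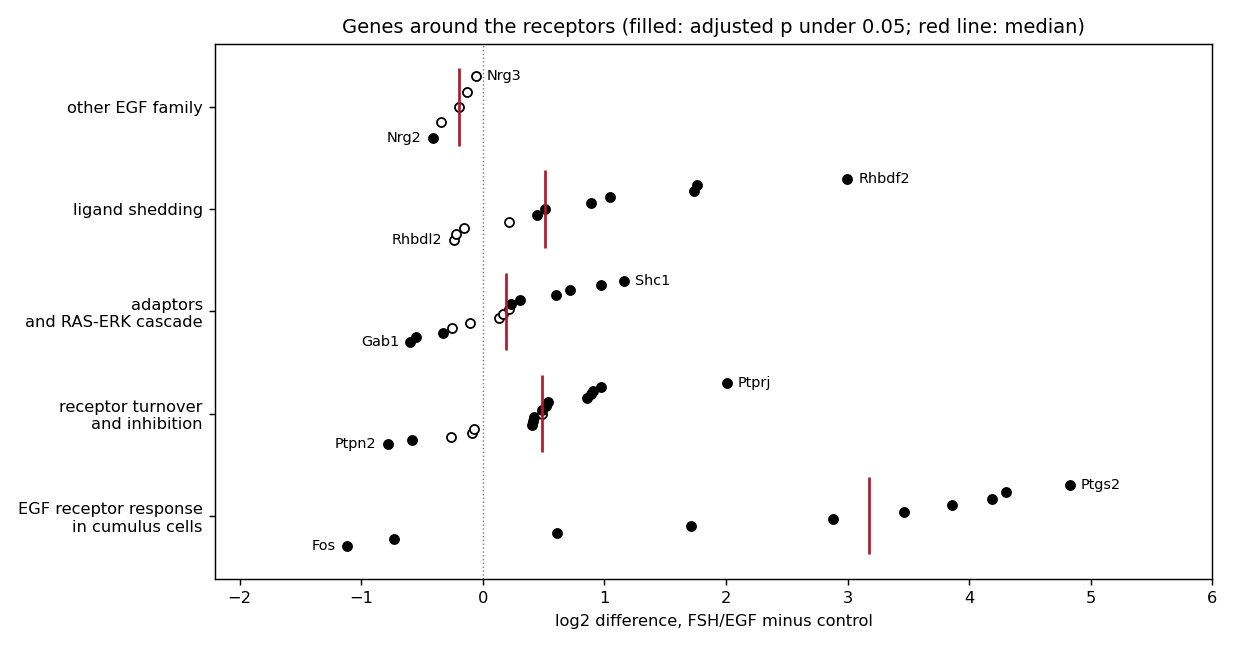
Log2 difference between FSH/EGF and control for each measured gene of the 5 pathway lists, one point per gene (filled where the adjusted p was under 0.05) and a red line at each median. The response list (median 3.17) lies highest, and the other EGF family genes (median -0.20) lie close to 0.

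The 3 ligand genes that rose, Epgn, Ereg and Btc, lie near each other on chromosome 5 in the RefSeq GRCm38.p6 gene order. On one side of this stretch lie Cxcl1, Cxcl2 and Mthfd2l, and on the other Parm1, Rchy1 and Odaph. Parm1 rose by 2.61 ± 0.11 (limma adjusted p = 3.46e-09), Rchy1 by 1.04 and Mthfd2l by 0.87. Odaph rose by 0.39, and with a control mean of 3.89 the size of its rise is approximate. Cxcl1 and Cxcl2 did not pass the test. Thus 4 of 6 measured flanking genes changed, against the 36.8% of all genes. Another gene of the stretch was not analysed here.

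**Figure D4:**
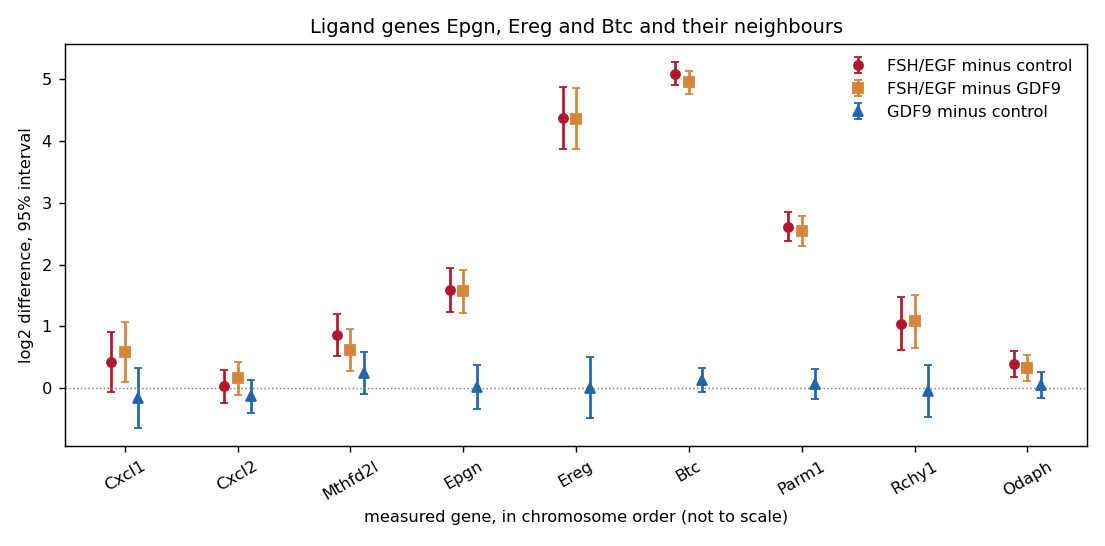
Log2 difference in each of the 3 comparisons for genes in chromosomal order around Epgn, Ereg and Btc, not to scale, with 95% intervals as bars. For FSH/EGF minus control, Btc (5.08) and Ereg (4.37) stand highest, and Parm1 (2.61) is the flanking gene with the largest difference.

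The genes most like each of these in profile over the 12 arrays were found by the root mean square difference of centred log2 values. For Btc they were Nmu (0.109), Flnc (0.147) and Akr1b8 (0.177). For Ereg they were Sfrp4 (0.238), Ier3 (0.268) and Aldh1a3 (0.271), and for Egfr they were Wdr59 (0.095), Slc38a5 (0.097) and Tenm4 (0.103). All 12 arrays share the pooling and the authors' normalization.

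Within the FSH/EGF group, the ligand genes differed in spread. Ereg was 1.05 log2 units higher on array 4 than on the next array, and it was 1 of 10 genes over 1 unit higher there. Arrays 1, 2 and 3 had 0, 0 and 1 such genes. Of the 10 ligand, receptor and inhibitor genes, 6 were highest on array 4, as were 31.1% of all genes. Without this array the difference from control was 4.07 for Ereg and 1.40 for Epgn, and that of Hbegf from GDF9 was 0.32 (limma adjusted p = 0.02).

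**Figure D5:**
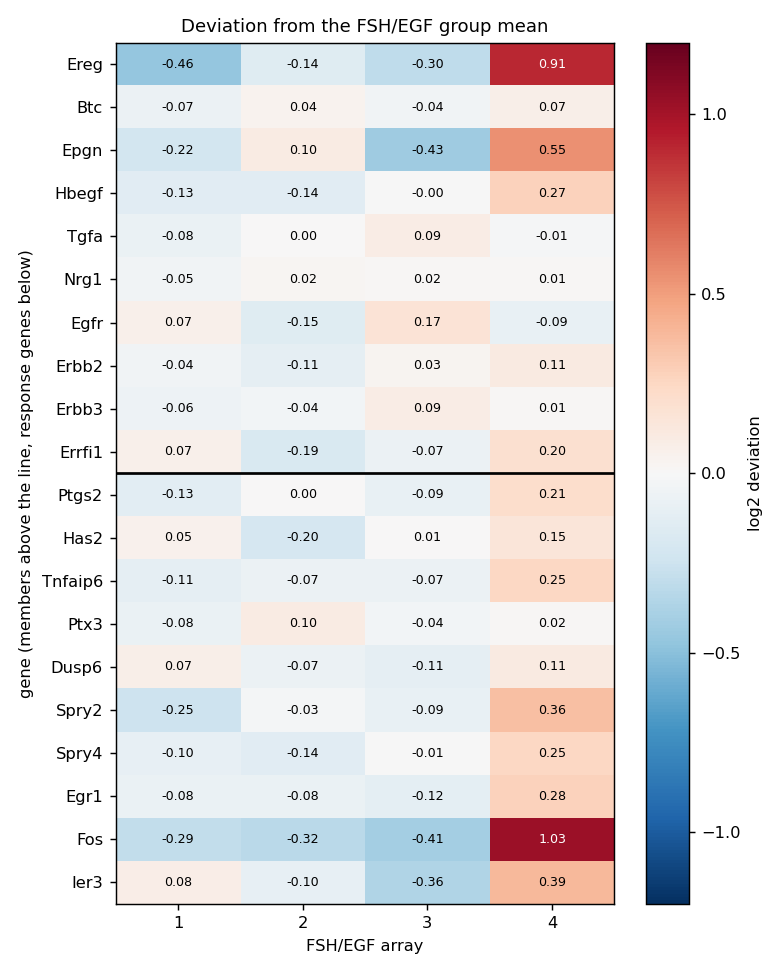
Deviation of each FSH/EGF array from the mean of the 4 FSH/EGF arrays, on the log2 scale, for the 10 genes and the 10 response genes. Array 4 was highest for 6 of the 10 and for 9 of the 10 response genes, where it was highest for 31.1% of all genes. The response list was chosen with earlier results of these data known.

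Markers of other cell types were read as a check of the labels. Oocyte markers averaged 4.80 to 5.21 over the FSH/EGF arrays, 4.80 to 4.95 over the GDF9 arrays and 4.93 to 6.19 over the control arrays, where array 4 was highest and the other 3 were at most 5.07. With control array 4 and FSH/EGF array 3 left out, the differences from control were 5.18 for Btc, 4.48 for Ereg, 1.76 for Epgn and -2.34 for Egfr. Endothelial markers averaged 5.28 to 5.32, 4.65 to 4.80 and 4.67 to 4.83 in the FSH/EGF, GDF9 and control groups, and 2 of their 6 genes rose with FSH/EGF against control, where 21.9% of all genes rose. These were Cdh5, by 3.18, and Tek, by 0.29. Leukocyte markers averaged 4.79 to 4.91, 4.74 to 4.94 and 4.79 to 4.98 in the same groups, and 1 of their 6 genes rose, Cd68, by 0.50 (limma adjusted p = 0.00146). Mural granulosa markers averaged 5.87 to 6.15, 5.07 to 5.40 and 5.15 to 5.22, and 1 of the 3 measured rose, Emb, by 2.61 (limma adjusted p = 1.75e-06). Theca and stroma markers averaged 6.02 to 6.11, 6.41 to 6.61 and 6.56 to 6.66, and 3 of their 7 genes fell against control, where 14.9% of all genes fell. Red blood cell markers averaged 5.20 to 5.23, 5.39 to 5.73 and 5.38 to 5.67, and both measured genes fell. The part of all these markers in the ligand and receptor results was not tested.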

How the data were processed

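The authors deposited log2 expression values, which they had normalized before deposit. Per the submitters' processing notes, the tools were RMA, Partek and GCOS, with neither role nor version, and the genome build is not given in the sources used here. The table held 35399 probe set rows, of which 21789 had 1 gene symbol, 1621 several and 11989 none in the platform annotation used here. Each of 19938 genes was read from its probe set with the highest mean over the 12 arrays. Precision is limited by the number of arrays, which have no read depth. Array medians ran from 5.41 to 5.53 and correlations within groups from 0.971 to 0.995, and no 2 arrays were identical.

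Groups were compared with limma 3.58.1 in R 4.3.3, with 1 mean per group over all 12 arrays, empirical Bayes moderation and Benjamini-Hochberg adjustment over all rows. The model was also run on simulated data with independent noise and changes planted in far fewer rows than changed here. That run is no test of how the model fits these data. The named genes are the 10 members and up to 3 members of each pathway list by size of change. The 3 nearest profiles of Ereg, Btc and Egfr and the chromosomal neighbours are also named. Others were named after their values were seen. They were Adam17, Adam10, Fos, Egr1, Gab1, Ptpn2, Sh3kbp1, the GDF9 response genes and the 7 shedding genes that rose. The markers Cdh5, Tek, Cd68, Emb, Fshr, Fst, Inha and Amh were also among them. Members and lists were chosen with earlier results of these data known. Alternatives were a variance trend, robust moderation, only the groups compared, only rows with 1 symbol, averaging the probe sets of a gene, equal array medians, array weights, the replicate block, quantile normalization done anew, leaving out the 40% of rows with the lowest means, leaving out the arrays with oocyte RNA, and each array left out. Ereg, Hbegf, Nrg1 and Erbb3 were without a promoter window.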

Additional observations from a re-analysis of the deposited data

Results flagged for a closer look

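Of 87 groups of 4 arrays examined, 2 had 1 array that stood apart from the rest by Dixon's test at the 95% level, and chance alone flags about 1 in 20. Both were of Nrg1, the neuregulin 1 gene. On FSH/EGF array 1 it measured 5.17, where the other FSH/EGF arrays measured 5.23 to 5.24. On control array 1 it measured 5.68, where the other control arrays measured 5.33 to 5.39. The groups examined did not take in every gene described here. Fos was not among those flagged, though it measured 9.86 on FSH/EGF array 4 and 8.42 to 8.54 on the other FSH/EGF arrays.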

How the results depend on the processing

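The 5 genes higher with FSH/EGF than control, the 6 higher than GDF9 and the 0 changed with GDF9 against control were the counts under all 23 alternatives tried. The number of lower genes moved. Against control it was 3 after renewed quantile normalization, with Erbb2 at -0.46 (adjusted p = 0.00115) and Tgfa at -0.33 (adjusted p = 0.0102, limma), and it ran from 1 to 2 with each array left out, with Erbb2 at -0.30 (adjusted p = 0.0438) without control array 3. Against GDF9 it was 2 with array weights (Erbb2 at -0.26, adjusted p = 0.0301), 2 after quantile normalization (Erbb2 at -0.41, adjusted p = 0.00273), and 1 to 2 with each array left out (Erbb2 at -0.32, adjusted p = 0.0288, without GDF9 array 2). Most pathway list counts that moved stand beside their results. Over the alternatives, the genes that rose against control ran from 5 to 7 for ligand shedding. They ran from 4 to 6 for adaptors and the RAS-ERK cascade. For receptor turnover and inhibition they ran from 6 to 12, and the genes that fell from 2 to 3. The cause was not tested. Differences that changed sign were all far from the threshold: with GDF9 against control, after quantile normalization, -0.007 for Egfr and -0.047 for Erbb2, and with array weights -0.053 for Ereg and 0.006 for Nrg1. With each array left out, the GDF9 differences ran from -0.037 to 0.040 for Ereg, -0.009 to 0.047 for Epgn, -0.042 to 0.083 for Erbb2, -0.005 to 0.159 for Errfi1 and -0.112 to 0.002 for Nrg1, and the FSH/EGF minus control difference of Cxcl2 ran from -0.088 to 0.119. With the replicate number as a block, 6 and 7 of the 10 genes changed with FSH/EGF against control and GDF9, the same counts as without it. Same-numbered arrays correlated from -0.389 to 0.221 in their deviations. The labels give no shared source, so whether the numbers pair the arrays is not known. Rescaling moved the median over all rows by under 0.1. Array signal over background was not analysed, which limits the sizes for the dimmest genes.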

Other observations

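Of 15 immediate early response genes, listed after the data were seen, 14 had their highest FSH/EGF value on array 4, where 31.1% of all genes did. Because the list was chosen with these values known, the count is a description. Fos measured 9.86 there and 8.42 to 8.54 on the others, where the control arrays measured 9.47 to 10.46. Dusp1, the gene of a phosphatase that switches off MAP kinases, measured 10.02 on array 4 and 8.36 to 8.80 on the others, against 6.38 to 8.30 on the control arrays. Egr2 was the exception, at 8.46 on array 4 and 8.32 to 8.62 on the others.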
